A study of Mus musculus with 8 samples.

Results

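OCT4 binding sites on methylated DNA were described in mouse embryonic stem cells as the regions called in bisulfite CUT&RUN libraries of which only methylated reads had been kept. They were set against the regions of conventional CUT&RUN libraries, which carry no information on cytosine modification. Regions are the distinct intervals of each deposited peak list on chromosomes 1 to 19 and X, and a site is a place where regions of both bisulfite replicates overlap by at least 1 bp. This gave 982 sites from 2682 regions in bisulfite replicate 1 and 1947 in bisulfite replicate 2. The conventional libraries held 186 and 200 regions in replicates 1 and 2, and the 6 OCT4 lists of the series, with 2 hmC-Seal libraries that pull down 5-hydroxymethylcytosine, held 19575 in all, of which 5015 belong to the 4 libraries compared. All libraries come from male E14 cells, labelled with the strain C57BL/6J and no treatment, grown without feeders in N2B27 medium with 2i. They share the Diagenode antibody against OCT4, and the IgG libraries served the authors as background. The model is 1 cell line. The bisulfite libraries were planned for more reads than the conventional ones and, by the study's methods, made from more CUT&RUN DNA. Preparation, planned depth and amount of DNA thus cannot be told apart. The lists hold no read totals, so the depth behind each list is unknown.

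OCT4, encoded by Pou5f1, is a POU-domain transcription factor that keeps embryonic stem cells pluripotent. It binds an octamer element, often beside SOX2, mostly in enhancers that lie away from gene starts. In CUT&RUN, an antibody brings a nuclease to the bound factor, and the short fragments it releases are sequenced. Methylation of cytosine in mammals lies mainly at CpG dinucleotides and is low at most CpG-rich promoters. Cells held in 2i have low methylation genome-wide, and TET enzymes turn 5-methylcytosine into 5-hydroxymethylcytosine. Bisulfite treatment does not separate these 2 modified bases from each other.

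The RefSeq table of GRCm38.p6 gives the sequence from 250 bases before to 50 after a gene start, and 10 of the 982 sites overlap such a window, at 10 genes. The start that places a window can differ from the end of the gene's whole span, from which the distances of regions and sites to gene starts in the later paragraphs are measured: the Plppr2 site lies in its window but 1218 bp downstream of the start of the span. These windows were searched on both strands for the octamer ATGCAAAT (ATTTGCAT on the other strand) and for ATGCNAAT, which takes any base at N and includes the octamer. Of all 32585 windows, 1.75% hold the octamer and 3.18% hold ATGCNAAT. At the sites, 4 of 10 genes have the octamer and 6 of 10 have ATGCNAAT, and each of those 6 windows has a match that lies wholly inside the called site. The 6 windows are printed because they show which letters lie under the called DNA, on the strand of the gene, with every match to ATGCNAAT in capitals.
H2ac6: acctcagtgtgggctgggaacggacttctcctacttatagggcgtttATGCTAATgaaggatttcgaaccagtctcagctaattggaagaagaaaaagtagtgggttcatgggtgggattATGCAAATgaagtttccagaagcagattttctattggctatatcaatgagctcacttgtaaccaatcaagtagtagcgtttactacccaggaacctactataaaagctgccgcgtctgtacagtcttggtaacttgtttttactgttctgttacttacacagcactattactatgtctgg
Plppr2: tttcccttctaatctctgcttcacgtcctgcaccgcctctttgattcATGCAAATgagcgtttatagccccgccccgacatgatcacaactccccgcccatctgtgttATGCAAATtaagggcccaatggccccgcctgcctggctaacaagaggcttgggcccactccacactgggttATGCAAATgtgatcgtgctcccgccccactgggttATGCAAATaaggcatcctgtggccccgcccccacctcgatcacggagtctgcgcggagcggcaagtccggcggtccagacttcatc
Cables2: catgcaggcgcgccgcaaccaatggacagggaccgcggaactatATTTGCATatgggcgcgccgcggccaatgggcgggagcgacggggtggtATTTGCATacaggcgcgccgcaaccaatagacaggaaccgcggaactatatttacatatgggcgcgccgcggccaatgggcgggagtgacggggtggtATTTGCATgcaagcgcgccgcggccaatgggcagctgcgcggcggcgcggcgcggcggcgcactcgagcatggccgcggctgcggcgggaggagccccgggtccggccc
Rras: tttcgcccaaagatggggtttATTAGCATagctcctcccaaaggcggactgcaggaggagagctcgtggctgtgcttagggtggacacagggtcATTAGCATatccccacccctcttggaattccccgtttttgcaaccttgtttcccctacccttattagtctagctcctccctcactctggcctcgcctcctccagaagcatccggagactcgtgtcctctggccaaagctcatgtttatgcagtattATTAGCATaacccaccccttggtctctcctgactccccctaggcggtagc
Pipox: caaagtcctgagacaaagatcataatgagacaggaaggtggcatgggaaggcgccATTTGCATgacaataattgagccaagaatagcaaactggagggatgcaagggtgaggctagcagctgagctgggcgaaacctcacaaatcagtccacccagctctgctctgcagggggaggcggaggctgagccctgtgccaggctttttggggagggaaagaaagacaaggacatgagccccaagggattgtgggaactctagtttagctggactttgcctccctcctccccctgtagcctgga
Gm40987: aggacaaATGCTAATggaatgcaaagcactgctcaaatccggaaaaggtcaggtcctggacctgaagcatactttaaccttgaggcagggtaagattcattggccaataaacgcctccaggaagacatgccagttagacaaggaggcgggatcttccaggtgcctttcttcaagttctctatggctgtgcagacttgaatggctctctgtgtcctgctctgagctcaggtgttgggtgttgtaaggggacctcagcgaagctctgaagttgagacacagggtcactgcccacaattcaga
The H2ac6 window is chr13:23683910-23684209 on the minus strand, upstream of a histone H2A gene, and its called site runs from 212 to 89 bases before the start that places the window and holds both capitalised matches. The Plppr2 window, chr9:21936760-21937059 on the plus strand, belongs to a phospholipid phosphatase-related gene and has 4 octamers, 2 of them inside the site. The Cables2 window, chr2:180273416-180273715 on the minus strand, belongs to a gene for a CDK5 and ABL substrate and has 3 octamers, 2 of them inside the site. The Rras window, chr7:45017692-45017991 on the plus strand, belongs to a small GTPase gene and has 3 matches to ATGCNAAT, 2 of them inside the site. The windows of Pipox, which encodes a peroxisomal sarcosine oxidase (chr11:77893823-77894122, minus strand), and of the long noncoding gene Gm40987 (chr13:65990947-65991246, minus strand) have 1 match each. The windows at the other genes, which are Gtpbp1, Etv5, Wwtr1 and the noncoding Gm31155, have no match to these letters.

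The first comparison asks how the lists of the 2 preparations differ in number and width of regions. The number of regions was 2682 and 1947 in bisulfite replicates 1 and 2, a mean of 2315 ± 520 (SD, n = 2 libraries), and 186 and 200 in conventional replicates 1 and 2, a mean of 193 ± 9.90 (SD, n = 2). Both bisulfite libraries lay above both conventional ones, and the bisulfite mean was 11.99 times the conventional mean (exact permutation test of log10 numbers, two-sided, p = 0.333, the smallest that 2 libraries against 2 allow). The median region was 101 and 104 bp wide in bisulfite replicates 1 and 2 and 138.5 and 130 bp in conventional replicates 1 and 2. Bisulfite regions were narrower in both libraries, with a difference of means of -31.75 bp (two-sided exact permutation test, p = 0.333). The middle 50% of widths ran from 93 to 120 bp in bisulfite replicate 1 and from 94.5 to 136 bp in bisulfite replicate 2. In the conventional libraries it ran from 113 to 174 bp and from 109 to 164 bp, so the distributions overlap although the medians do not. The hmC-Seal replicates 1 and 2, with 3499 and 11061 regions of 112 and 99 bp at the median, also had longer lists of narrower regions than the conventional libraries. Regions with more than 1 summit were 2.20% and 3.49% of the bisulfite lists and 4.30% and 5.00% of the conventional lists. Fold enrichment, the authors' ratio of fragments at a summit to the local IgG background, had a median of 6.00 and 6.28 in the bisulfite lists and 7.62 and 7.74 in the conventional lists. The lists are not scaled to each other, so these folds describe each list and were not tested between them. The median -log10 q was 6.54 and 5.88 in the bisulfite and 6.48 and 5.81 in the conventional lists, and the widest region was 478 and 997 bp against 695 and 831 bp, so the groups overlap in both. In all, 13 measures of number, width and position were tested between these libraries, the groups did not overlap in those 13, and the Benjamini-Hochberg adjusted p is 0.333 for each (exact permutation tests). Several of the 13 count the same quantity with other windows or gene sets, and some were chosen after values were seen. The count of 13 is therefore no added support.

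The replicates of the bisulfite preparation shared part of their lists. Of the regions of bisulfite replicate 1, 984 or 36.7% overlapped a region of replicate 2, and of those of replicate 2, 983 or 50.5% overlapped one of replicate 1. The shared regions were wider and more enriched than the rest of their own list. In replicate 1 the median width was 119 bp for shared and 97 bp for unshared regions, with median folds of 7.22 and 5.52. In replicate 2 the median widths were 116 and 98 bp, with median folds of 7.16 and 5.83. Shared regions were also the ones found by conventional sequencing: 18.1% of them in each replicate overlapped a conventional region, against 0.766% (95% Wilson interval 0.448% to 1.31%) of the unshared regions of replicate 1 and 1.97% (1.27% to 3.06%) of those of replicate 2. All intervals given here express the error of counting alone, because neighbouring regions of a list are not independent samples.

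The 982 sites join the extents of both replicates and had a median width of 134.5 bp, with a range from 89 to 1003 bp. Their fold enrichment ranged from 1.297 to 37.6 in replicate 1 and from 1.291 to 38.6 in replicate 2, with medians of 7.22 and 7.16. Across the 982 sites the folds of the replicates had a Spearman correlation of 0.720, given as a description of points that share the caller and the IgG background. A fold under 2 in a replicate was rare, at 4 sites, one of them inside Myo3a with folds of 1.47 and 1.41. The widest site, at Crlf2, was also among the most enriched, with folds of 34.6 and 38.6.

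**Figure D1:**
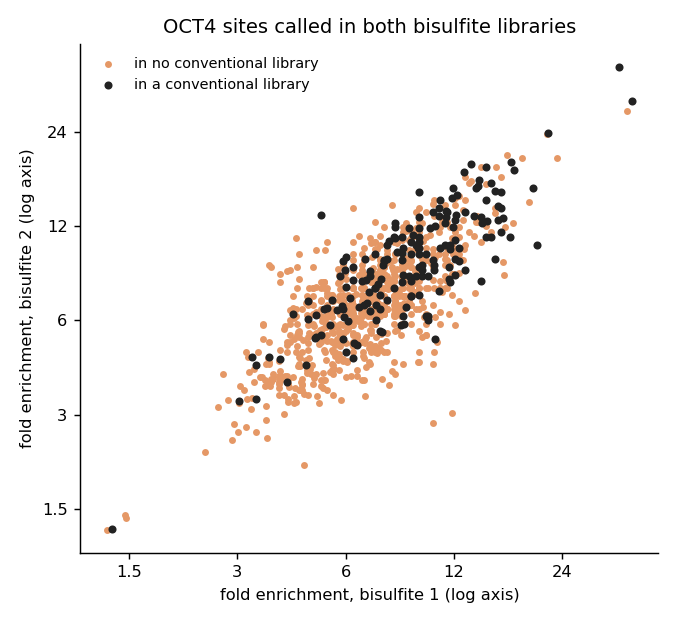
Fold enrichment over IgG in bisulfite replicate 1 (x axis, log scale) and replicate 2 (y axis, log scale) at the 982 sites called in both, with the 177 sites that overlap a conventional region in black and the other 805 in orange. Black points are spread over the whole range, and they make up a larger share of the sites at high folds.

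Of these sites, 122 or 12.4% overlapped a region of conventional replicate 1, 128 or 13.03% one of conventional replicate 2, 177 or 18.0% (95% Wilson interval 15.7% to 20.6%) one of either and 73 or 7.43% both. The remaining 805 sites, 82.0%, had no conventional region. These counts rest on list length and threshold: lists of 186 regions each gave 80 sites, of which 30% (95% Wilson interval 21.1% to 40.8%) had a conventional region, and a -log10 q of at least 5 gave 635 sites. In the hmC-Seal libraries, 656 sites or 66.8% were found in replicate 1, 439 or 44.7% in replicate 2 and 716 or 72.9% (70.0% to 75.6%) in either. Nearly all of the 177 sites with a conventional region, 175, also had an hmC-Seal region, against 541 of the 805 without one. A group of 264 sites, 26.9%, was called in the bisulfite libraries only. These were narrow, with a median width of 105 bp, and sites with a conventional region were wide, with a median of 200 bp against 124 bp for those without.

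The share of sites found elsewhere was larger at more enriched sites. With the smaller of the 2 bisulfite folds under 5, 18 of 261 sites or 6.90% (95% Wilson interval 4.41% to 10.6%) were found in a conventional library. Between 5 and 8 it was 64 of 452 or 14.2% (11.2% to 17.7%), between 8 and 12 it was 67 of 215 or 31.2% (25.3% to 37.6%), and at 12 or more 28 of 54 or 51.9% (38.9% to 64.6%). The hmC-Seal share went the same way, from 58.6% (52.6% to 64.4%) through 71.7% and 86.5% to 98.1% (90.2% to 99.7%). The 2 shares come from lists of unlike length, 186 and 200 conventional and 3499 and 11061 hmC-Seal regions, and are not to be compared with each other. Sites at 12-fold or more were found in the short conventional lists about as often as not, and nearly always in the longer hmC-Seal lists. Median width followed the same order, at 117, 133, 154 and 177 bp. The fold classes were chosen after the values were seen.

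**Figure D2:**
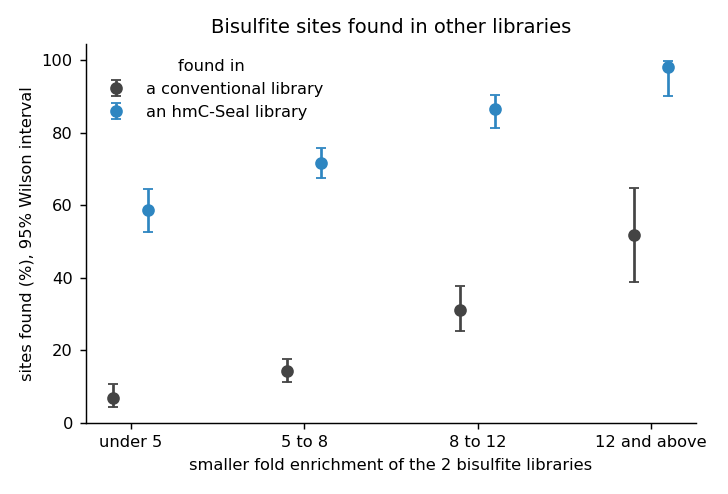
Share of bisulfite sites found in a conventional library (dark) and in an hmC-Seal library (blue), by the smaller fold enrichment of the 2 bisulfite libraries, with 95% Wilson intervals. Both shares are larger in each higher class, from 6.90% to 51.9% and from 58.6% to 98.1%. The hmC-Seal lists are much longer than the conventional lists, so the 2 colours are not to be compared with each other.

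Seen from the conventional side, 72.0% and 68.5% of the regions of replicates 1 and 2 overlapped a region of bisulfite replicate 1. For bisulfite replicate 2 it was 71.5% and 71.5%. The mean share was 70.9% ± 1.61 (SD, n = 4 pairs of libraries, not independent since each library is in 2 pairs). This share rests on list length: with each list reduced to its 186 regions of highest -log10 q, the mean was 20.03%. Places called in both conventional replicates numbered 106, and 74 of them or 69.8% (95% Wilson interval 60.5% to 77.7%) were found in both bisulfite replicates, 12 in 1 of them and 20 in neither. Of the 20, only 3 had an hmC-Seal region, against 73 of the 74. At the 73 sites shared by all 4 libraries, median folds were 10.3 and 11.1 in the bisulfite and 8.75 and 9.24 in the conventional replicates. The mean log folds of the preparations had a Spearman correlation of 0.560 over these 73 sites, a description of places chosen for being called in all 4.

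The next comparison asks how near to genes the regions lie. The midpoint of a region was 22052 and 20116 bp from the nearest gene start at the median in bisulfite replicates 1 and 2, and 17036 and 17701 bp in conventional replicates 1 and 2. Bisulfite regions lay farther away in both libraries, with a quotient of means of 1.21 (exact permutation test of log10 medians, two-sided, p = 0.333). Counting protein-coding genes only, the medians were 66974 and 56674 bp against 40606 and 36938 bp, a ratio of 1.59 (the same exact permutation test, p = 0.333).

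Shares within fixed distances of a gene start were lower in the bisulfite lists. Within 1 kb of a gene start lay 3.39% and 3.90% of the bisulfite regions and 9.14% and 8.50% of the conventional regions, a difference of means of -5.17 percentage points (two-sided exact permutation test, p = 0.333), which was -11.8 with the other sequences that the gene table covers. Within 5 kb it was 17.3% and 17.1% against 26.3% and 24.5%, a difference of -8.20 points (exact permutation test, p = 0.333), which was -4.30 with lists of 186 regions each and -13.5 with those other sequences. The hmC-Seal replicates 1 and 2 had 5.54% and 3.79% within 1 kb and 21.6% and 17.01% within 5 kb, so replicate 2 lay beside the bisulfite lists and replicate 1 between the preparations. Within 50 kb it was 72.3% and 73.7% against 76.3% and 80.0% (exact permutation test, p = 0.333). For scale, 3.99% of the bases of these chromosomes lie within 1 kb of a gene start, 16.7% within 5 kb and 69.6% within 50 kb. The bisulfite shares thus lay close to those of bases at 1 and 5 kb and were higher than those of bases at 50 kb. The conventional shares were above those of bases and of the bisulfite lists at each of the 3 distances. These windows, the promoter windows and the lists of equal length were added to the comparison of libraries after values were seen.

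The sites found in both bisulfite replicates had a median distance of 19909 bp, with the middle 50% between 6686 and 49879 bp and a largest distance of 424742 bp. Of the 982 sites, 40 or 4.07% (95% Wilson interval 3.01% to 5.50%) lay within 1 kb of a gene start, 187 or 19.04% (16.7% to 21.6%) within 5 kb and 736 or 74.9% (72.1% to 77.6%) within 50 kb. Counting protein-coding genes only, the shares were 1.93%, 7.84% and 51.0%, where 1.60%, 7.56% and 41.5% of bases lie as near. Within 5 kb lay 23.7% (18.1% to 30.5%) of the 177 sites with a conventional region, 18.0% (15.5% to 20.8%) of the 805 without one and 17.8% (13.7% to 22.9%) of the 264 called in the bisulfite libraries only. The intervals of these 5 kb shares overlap. Within 1 kb the shares were 7.91% (4.77% to 12.8%), 3.23% (2.21% to 4.69%) and 3.41% (1.80% to 6.35%) in the same order. There the intervals of sites with and without a conventional region do not overlap. Within 50 kb they were 78.5% (71.9% to 83.9%), 74.2% (71.0% to 77.1%) and 65.9% (60.0% to 71.4%). There the first and last intervals do not overlap. These differences were not tested.

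Gene bodies held a smaller share of the bisulfite regions. The midpoint fell inside a gene span in 38.5% and 40.4% of the bisulfite and 45.7% and 45.0% of the conventional regions, a difference of means of -5.93 percentage points (two-sided exact permutation test, p = 0.333). For protein-coding spans the shares were 30.4% and 32.1% against 34.9% and 34.5%, a smaller difference of -3.48 points (two-sided exact permutation test, p = 0.333). All gene spans together make up 47.2% of the bases, and all 4 lists lay below that share, the bisulfite lists farther. Of the 982 sites, 401 or 40.8% (95% Wilson interval 37.8% to 43.9%) lay inside a span. A protein-coding span held 328 or 33.4% of them, where such spans cover 39.1% of bases, and a long noncoding gene held 80 or 8.15%, where such spans cover 8.38%. The nearest gene start belonged to a protein-coding gene at 359 sites, to a long noncoding gene at 268 and to a pseudogene at 265. Pseudogenes were nearest at 27.0% of sites and make up 19.9% of the gene table, and protein-coding genes were nearest at 36.6% and make up 43.7%. These shares are not matched. A gene without a strand, nearest at 330 sites, enters with both ends of its span and so can be nearest more easily. Shares of the table are also not shares of bases nearest to each class. Where the strand of the nearest gene is given, 323 sites lay upstream of the start and 329 downstream.

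**Figure D3:**
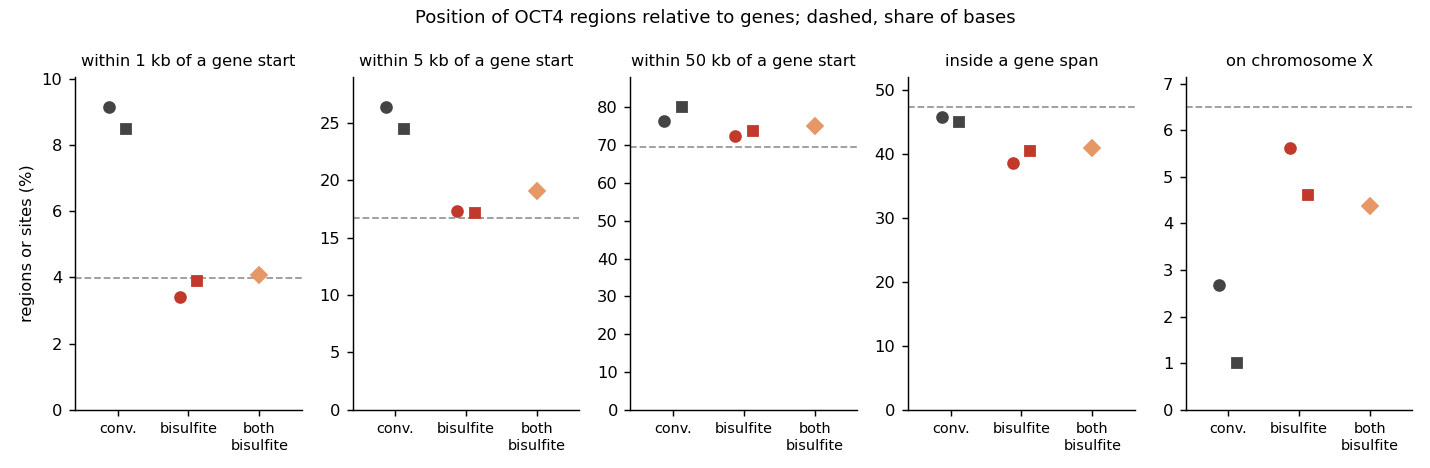
Share of OCT4 regions (y axis, %) within 1, 5 and 50 kb of a gene start, inside a gene span and on chromosome X, for conventional libraries (black), bisulfite libraries (red; circle replicate 1, square replicate 2) and the 982 sites found in both bisulfite libraries (orange). Dashed lines give the share of bases, with each chromosome counted once. The bisulfite points lie closer to these lines than the conventional points near gene starts, and farther from them inside gene spans. On chromosome X they lie closer to a line that does not allow for the number of X copies in these male cells. Closeness to that line is therefore not interpreted.

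Every chromosome held sites. They numbered 3.73 per 10 Mb over all 20 chromosomes, with a median of 3.75 and a range from 2.52 on chromosome X to 5.25 on chromosome 11. Chromosomes 9 and 10, with 5.06 and 4.75 sites per 10 Mb, came next to chromosome 11, and chromosome 8, with 2.86, next to X. The order did not follow gene density: across the 20 chromosomes the Spearman correlation of sites and genes per 10 Mb was 0.125, a description without a test. Chromosome X held 43 sites or 4.38% (95% Wilson interval 3.27% to 5.85%), below its 6.49% share of bases. That share counts each chromosome once. The cells are male, and the number of X copies per cell was not taken into account.

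**Figure D4:**
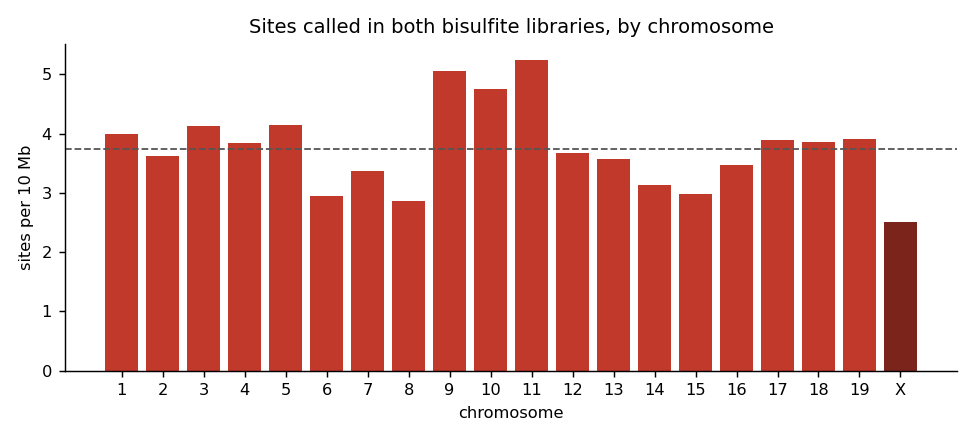
Number of sites found in both bisulfite libraries per 10 Mb of each chromosome (bars), with the value over all chromosomes as a dashed line at 3.73. Chromosome 11 is highest at 5.25 and chromosome X lowest at 2.52.

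The share on chromosome X also differed between the bisulfite and conventional lists. It held 151 regions or 5.63% (95% Wilson interval 4.82% to 6.57%) of bisulfite replicate 1 and 90 or 4.62% (3.78% to 5.65%) of bisulfite replicate 2. In the conventional libraries it held 5 regions or 2.69% (1.15% to 6.14%) and 2 regions or 1.00% (0.275% to 3.57%). The hmC-Seal replicates 1 and 2 had 3.801% and 5.58%, the latter within the range of the bisulfite libraries. The share was higher in both bisulfite than in both conventional libraries, by a difference of means of 3.28 percentage points (two-sided exact permutation test, p = 0.333). The conventional values rest on 7 regions in all, the difference was 1.61 points with lists of 186 regions each, and the measure was chosen after the values were seen. Among the sites, 3 of the 177 with a conventional region and 17 of the 264 called in the bisulfite libraries only lie on X.

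Distances between neighbouring sites were described without a baseline of evenly spread sites, so they do not say whether sites cluster. The median distance from a site to the nearest other site was 819720 bp, 31 sites or 3.16% had another within 10 kb and 115 or 11.7% within 100 kb. The fullest stretches of 1 Mb held 5 sites each, at chr9:71000001-72000000, where Polr2m, a gene for an RNA polymerase II subunit, is among the nearest genes, and at chr3:8000001-9000000. A stretch of chromosome 2, chr2:177000001-178000000, held 4 sites whose nearest genes are Gm14325, Gm14400, Gm14407 and Gm14411, and all 4 were found in an hmC-Seal library and 1 in a conventional library. The stretch of chromosome 5 around Crlf2 also held 4, of which 2 had a conventional region.

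Promoters gave a smaller set of regions. A RefSeq promoter window was met by 18 regions or 0.671% (95% Wilson interval 0.425% to 1.06%) of bisulfite replicate 1 and 17 or 0.873% (0.546% to 1.39%) of bisulfite replicate 2. In conventional replicates 1 and 2 it was 8 regions each, 4.30% (2.20% to 8.26%) and 4.00% (2.04% to 7.69%). The bisulfite share was lower in both libraries, with a difference of means of -3.38 percentage points (two-sided exact permutation test, p = 0.333) that was -2.15 with lists of 186 regions each. The hmC-Seal replicates 1 and 2 had 2.34% and 0.497%, and the windows cover 0.342% of bases. The octamer ATGCAAAT was in 8 of the 19 windows met by bisulfite replicate 1 and 6 of the 18 met by replicate 2, and in 4 of 8 met by each conventional library, against 1.75% of all windows. Windows with the octamer were thus met by both preparations.

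Of the 10 sites at a promoter window, 7 had a conventional region and all 10 had an hmC-Seal region, where 18.0% and 72.9% of all 982 sites have one. At Plppr2, whose window has 4 octamers, the fold was 11.3 and 12.2 in the bisulfite and 5.76 and 7.76 in the conventional replicates. At Cables2 it was 8.61 and 7.97 in the bisulfite and 11.02 and 15.1 in the conventional replicates. Both places were thus called in all 4 libraries. At H2ac6 it was 11.94 and 11.95 in the bisulfite libraries and 14.4 in conventional replicate 2, with no region in conventional replicate 1. The nearest gene of that site is H2bc4, a histone H2B gene 89 bp away, and the octamer is a known element of H2B promoters. Rras, with folds of 6.68 and 9.75, and Pipox, with 4.71 and 6.74, had no conventional region. The noncoding Gm40987 was called in all 4 libraries, with folds of 11.4 and 13.4 in the bisulfite and 6.52 and 4.94 in the conventional replicates.

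The windows at these sites ranged from 3 CpG dinucleotides at Pipox to 43 at Cables2, with a median of 12.5 over the 10 genes against 7 over all windows. Cables2, Etv5 with 37 and Gtpbp1 with 25 are thus CpG-rich, and Pipox, Gm40987 with 4 and H2ac6 with 6 are not. The stretch of the window inside the called site holds 17 CpG at Cables2, 13 at Gtpbp1, 2 at H2ac6 and 1 at Pipox. The lists do not say which of these cytosines were methylated in the kept reads.

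The sites within 1 kb of a protein-coding gene start number 19, and the 10 that rank highest in both bisulfite lists were at Crlf2, Etv5, Cyb5r1, H2bc4, Gtpbp1, Lrpap1, Tnks1bp1, Zfp771, Cables2 and Prrc2a. All 10 were found in an hmC-Seal library and 6 in a conventional library, where 72.9% and 18.0% of all 982 sites were. The 10 were taken by rank, and both shares are larger at more enriched sites in general. Etv5 encodes an ETS transcription factor of naive stem cells, and its site, chr16:22439752-22439925, lies 269 bp upstream with folds of 14.8 and 18.5 in the bisulfite libraries and 21.6 in conventional replicate 2 only. Gtpbp1 encodes a GTP-binding protein, and its site at chr15:79690631-79690847 had folds of 20.4 and 10.5 in the bisulfite and 13.2 and 9.40 in the conventional replicates. Lrpap1 encodes a chaperone of lipoprotein receptors, and its site 788 bp inside the gene had 9.58 and 10.6 against 9.89 and 7.94. Gtpbp1 and Lrpap1 were thus called in all 4 libraries. Cyb5r1, a cytochrome b5 reductase gene, was called in the bisulfite libraries only of these 4: its site 635 bp upstream, chr1:134405090-134405202, had folds of 12.9 and 14.6 in the bisulfite libraries and no conventional region. Tnks1bp1 and Prrc2a, with sites 146 and 168 bp upstream, and the zinc-finger gene Zfp771, with a site 526 bp downstream, had no conventional region either, at bisulfite folds between 7.59 and 9.11.

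Of the 10 sites that rank highest by -log10 q in both bisulfite lists, 3 lie within 5 kb of a gene start, 4 were found in a conventional library and 9 in an hmC-Seal library, where 19.04%, 18.0% and 72.9% of all 982 sites do. Beside Crlf2, whose product is a subunit of the TSLP receptor, and a site at chr10:95461249-95461494 near the pseudogene Gm3619, they include chr2:175014771-175015061, 1794 bp upstream of Gm14444, with folds of 14.8 and 12.4 in the bisulfite and 11.02 and 11.2 in the conventional replicates. A site at chr15:5895924-5896030, nearest to Gm8043, had folds of 12.1 and 12.97 in the bisulfite libraries and 8.59 in conventional replicate 2 only. The other 6 had no conventional region.

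Among those 6, the site at chrX:115245065-115245201 stood highest, with folds of 36.4 and 27.9 in the bisulfite and 28.8 and 11.4 in the hmC-Seal replicates, 153682 bp from Gm27414, the nearest gene. A site 20260 bp upstream of 4930505A04Rik, chr11:30491983-30492194, had 21.7 and 23.5 in the bisulfite libraries and 24.8 and 14.1 in the hmC-Seal libraries. A site inside the zinc-finger gene Zfp534, chr4:147697222-147697368, had 12.8 and 12.6, with 14.3 in hmC-Seal replicate 1 only. All 3 places were thus called in an hmC-Seal library and in no conventional library. The remaining 3 were narrow: 101 bp inside Prdm1, which encodes BLIMP1, a transcriptional repressor needed to form primordial germ cells, with folds of 4.52 and 3.73, 104 bp near 4932416K20Rik with 4.34 and 3.65, and 101 bp near 1700111N16Rik on X with 8.45 and 7.20. The last of these was in no other library.

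The next sites of that order without a conventional region were at Gm9249, Skint5, Erich3 and Tox3. Skint5, of a gene family expressed in skin epithelium and thymus, held a site with folds of 23.3 and 19.8 in the bisulfite libraries and 34.4 in hmC-Seal replicate 1. At Gm9249, 33044 bp upstream of Erich3, and 127369 bp downstream of the HMG-box gene Tox3, sites of 91 to 102 bp had folds between 2.75 and 4.59 at -log10 q values, as deposited, from 31.3 to 62.2. Of the 10 sites of highest rank without a conventional region, 5 had a bisulfite fold under 5. High rank by -log10 q thus went with a wide range of folds.

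Genes were then taken by role from lists of 160 genes in all, and a gene was counted where a site of both bisulfite replicates lay within 50 kb of its start. This holds for 4.28% of all 49554 genes of the table and for 4.25% of the 21631 protein-coding ones. Of 30 core pluripotency genes, 8 or 26.7% had such a site, 4 of them within 5 kb, where 0.458% of all genes have one. Of 20 genes of the DNA methylation machinery 3 did, of 26 signalling genes 2, of 24 lineage regulators 1, and of 38 imprinted and 22 germline genes none. The pluripotency list was farthest above the share over all genes, and the imprinted and germline lists, with a count of 0, below it; lists this short give coarse shares. Library by library, 12 and 14 of the 30 pluripotency genes had a region within 50 kb in bisulfite replicates 1 and 2, where 10.1% and 7.85% of all genes do. In conventional replicates 1 and 2, 2 genes each did, where 0.874% and 0.987% of all genes do. In the hmC-Seal replicates 18 and 15 of the 30 did, where 14.1% and 35.4% of all genes do. Of the 20 methylation genes, 6 and 5 had a region in bisulfite replicates 1 and 2 and 1 and 2 in the conventional replicates, so this list too lay above all genes in each of these libraries. Of the imprinted genes, 2 and 1 had one in bisulfite replicates 1 and 2, of the germline genes 1 and 0, of the signalling genes 3 and 2, and of the lineage regulators 3 and 1. Of these 4 lists, only the lineage regulators had genes near a conventional region, 2 in replicate 1 and 1 in replicate 2.

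At 6 of the 8 pluripotency genes the site lies upstream of the start. Dppa3 encodes STELLA, which guards methylation in the early embryo, and its site 1748 bp upstream, chr6:122624611-122624740, had folds of 13.2 and 11.5 in the bisulfite and 14.7 and 7.87 in the hmC-Seal replicates. The same site lies 14589 bp upstream of Gdf3, a TGF-beta family ligand. Tfcp2l1, a transcription factor of the naive state, had a site 2354 bp upstream with 5.80 and 8.03 in the bisulfite libraries and 13.4 in hmC-Seal replicate 1. None of these places was called by conventional sequencing. Jarid2, a component of Polycomb repressive complex 2, was the 1 pluripotency gene called in all 6 libraries: its site 25033 bp upstream had 14.0 and 16.1 in the bisulfite, 8.18 and 9.24 in the conventional and 21.5 and 7.87 in the hmC-Seal replicates. Mycn, a MYC family gene, had a site 14540 bp downstream of its start with 12.4 and 6.90 and no conventional region. Nr0b1, which encodes the orphan nuclear receptor DAX1 on X, had a site 10565 bp upstream with 7.59 and 5.50, a fold of 6.32 in conventional replicate 1 and no hmC-Seal region. Sox2 and Klf2 complete the list, with sites 4056 bp downstream and 2807 bp upstream of their starts, bisulfite folds of 8.16 and 8.46 and of 3.92 and 4.47, and no conventional region. The nearest site of both bisulfite replicates was 340543 bp from the start of Pou5f1 and 82813 bp from that of Nanog. At Pou5f1, single replicates had a nearer region: bisulfite replicate 2 at 1802 bp, conventional replicate 2 at 1773 bp and hmC-Seal replicate 2 at 1910 bp. At Nanog, hmC-Seal replicates 1 and 2 had a region at 48 and 20048 bp.

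Among the methylation genes, Uhrf2, which encodes a binder of modified cytosine, had a site 1222 bp upstream, chr19:30029065-30029351, with folds of 9.11 and 8.03 in the bisulfite replicates and 6.64 in conventional replicate 2. Tet2, the gene of an enzyme that oxidises 5-methylcytosine, held a site 20333 bp downstream of its start, inside the gene, with 7.07 and 8.68. Trim28, whose product represses through KRAB zinc-finger proteins, had one 9747 bp upstream with 8.55 and 6.19, which lies nearer to Zbtb45. Neither of the last was called by conventional sequencing, and both were called in both hmC-Seal libraries. Of the signalling genes, Id3, a target of BMP signals, had a site 3123 bp downstream of its start with 9.34 and 7.38, and Lifr, the receptor of LIF, one 25269 bp inside the gene with 8.64 and 8.03. Of the lineage regulators, Tfap2c, a factor of trophectoderm and germ cells, had a site 18805 bp from the nearer end of its span, inside the long noncoding gene Gm36038 and 311 bp from its start, with 15.9 and 12.6 in the bisulfite replicates and 5.91 in conventional replicate 1.

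**Figure D5:**
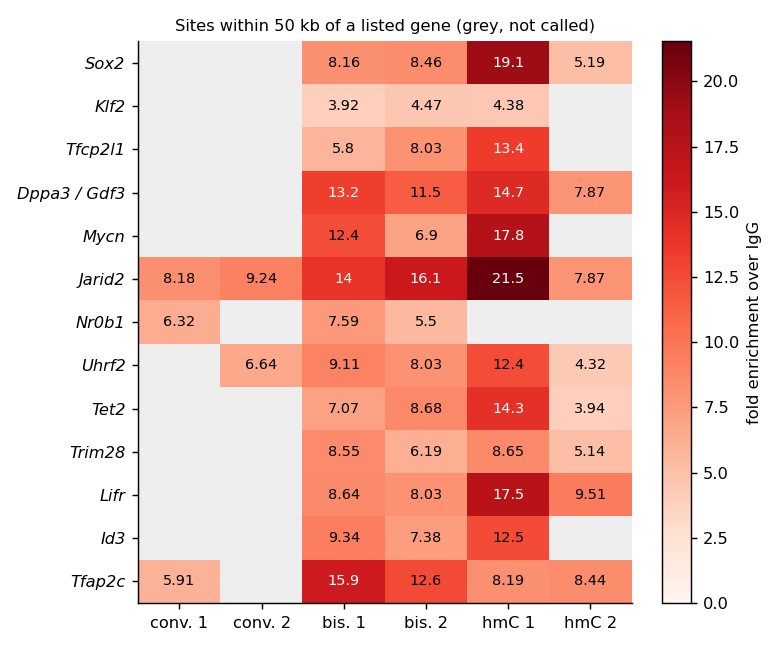
Fold enrichment over IgG (colour and number) in the 6 OCT4 libraries at the sites within 50 kb of a listed gene, with grey where no region was called. The series has IgG libraries of the conventional and bisulfite preparations only, none of hmC-Seal. Folds are not scaled between libraries, so colours are not to be compared across columns. Jarid2 is called in all 6 libraries, and 9 of the 13 sites have no conventional region.

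A few places were called by conventional sequencing alone. Of the 20 called in both conventional replicates and in neither bisulfite replicate, the 5 of highest rank had no hmC-Seal region. One lies inside Myo3a, a myosin gene, 33216 bp from the start of Gad2, which encodes a GABA-synthesising enzyme, with folds of 4.32 and 3.84. This place, chr2:22587745-22587853, is close to the bisulfite site chr2:22590340-22590490 in the same gene. Others lie 321 bp from Gm10222 with 2.38 and 2.75 and 138568 bp from Gm6863 with 2.49 and 3.07. The Gm10222 place, chr1:24612862-24613179, is close to a site at Gm10925, chr1:24613891-24614078, that was called in both preparations. The bisulfite sites in Myo3a and at Gm10925 are among the 4 with a fold under 2. Their -log10 q was still 16.02 and 11.5 in Myo3a and 14.4 and 10.5 at Gm10925 in bisulfite replicates 1 and 2. Conventional folds at Gm10925 were 2.12 and 2.27, below the list medians of 7.62 and 7.74. The IgG background at these places was not examined, and whether the calls reflect OCT4 binding was not tested. The last pair, nearest to Eif3s6-ps1 and Gm20127, had 10.5 and 13.1 and 10.5 and 11.8, above the median of the conventional lists.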

How the data were processed

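Peak lists of 6 OCT4 CUT&RUN libraries were used, grouped by the sample labels; comparisons used the 2 bisulfite and 2 conventional libraries, with hmC-Seal values beside them. The authors trimmed reads with fastp 0.19.4, aligned them to GRCm38 with Bismark 0.22.3 or Bowtie2 2.4.1, dropped unmethylated reads from the bisulfite data and long fragments from all, and ran MACS 2 on every library by itself with IgG as control. Tool versions are from the submitters' processing notes. The deposited values are the fold enrichment (a ratio to the IgG background), −log10 p and −log10 q at the summit, and a score; the authors' score and p were not used further. Read depth is not in the lists.

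Entries with the same start and end made 1 region, with its best summit. Gene starts are the 5′ ends of whole spans in the RefSeq table of GRCm38.p6 for 49554 genes, with the strand from the RefSeq promoter table for 26794, from GENCODE M1 by symbol for 8746 (no position of that build was used), and the nearer end of the span for 14014 without one. The 2 strand sources gave the same strand for 99.7% of 16265 genes. Chromosome length was the last position in the lists or gene table. Sequence of peaks outside the promoter table was not used here.

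Libraries were compared by two-sided exact permutation tests; shares have 95% Wilson intervals. Nothing in the labels says that replicates came from separate cultures, so p-values measure the spread between these libraries only, which may be technical. The study names the same pools for both preparations under 1 replicate number: a bisulfite library held 71.8% of the conventional regions with its own number and 70.003% of those with the other. The sites named were the 10 whose poorer rank of both bisulfite lists (by −log10 q) was best, the first 10 within 1 kb of a protein-coding start, the first 10 without a conventional region, up to 5 called in both conventional replicates only, and those near listed genes (within 5 kb, or else the nearest within 50 kb); genes at promoter windows and the fullest 1 Mb stretches were named after their values were seen. Members and lists were chosen with earlier results of these data known. Alternatives were stricter q-values, other overlap rules, all sequences, 100 kb bins with 10 or more regions left out, lists of equal length, protein-coding genes, summits, other windows, each replicate left out and pairing by number. Interval code was tested on simulated lists. Scripts ran under scipy 1.17.1, pandas 2.3.3, numpy 2.4.6 and Python 3.11.15.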

Additional observations from a re-analysis of the deposited data

How the results depend on the processing

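The 8 comparisons between libraries kept their direction under all 83 alternative values computed for them, which says little beyond these 4 libraries, since the exact test cannot pass a threshold at this size. Without each library in turn, the ratio of region numbers ranged from 10.1 to 13.9 and the difference in share on chromosome X from 2.44 to 4.13 percentage points. Over all sequences, the differences within 1 and 5 kb of a gene start were -11.8 and -13.5 points, with added regions that weigh more in the conventional lists. For protein-coding spans, the difference inside spans was -3.48 points. No 100 kb bin held 10 regions, so leaving out such bins moved nothing.

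The number of sites in both bisulfite replicates was 635 at a −log10 q of at least 5 and 80 with lists of 186 regions. Their share in a conventional library was 30% with lists of 186 regions and 14.7% with an overlap of at least 50% of each region, and it ranged from 12.4% to 13.03% with 1 conventional library left out. Their share within 5 kb of a gene start was 7.84% for protein-coding genes; in windows of 1 and 50 kb it was 4.07% and 74.9%. The share of conventional regions in a bisulfite library was 68.0% at a −log10 q of at least 3, 61.99% at 5, 69.2% over all sequences, 56.5% with an overlap of at least 50%, 66.7% by best summits within 100 bp and 20.03% with lists of 186 regions. The shorter lists hold fewer regions by construction; the cause of the other changes was not tested. Pairing by replicate number (replicate block) gave 71.8% for this share, a ratio of 11.8 for region number, 1.21 for distance, -31.75 bp for width and -5.93 points for gene spans, and changed no direction.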
